A study of Rattus norvegicus with 13 samples.

Results

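The genes that write, erase and read DNA methylation were followed in the thyroid of adult rats whose mothers had received potassium iodide (KI) during pregnancy. The members were chosen by gene symbol alone: Dnmt1, Dnmt3a, Dnmt3b, Uhrf1, Tet1, Tet2, Tet3 and Tdg, and every gene probe carrying one of these symbols was kept. This gave 8 of the 27103 named genes and 11 of the 45598 probes of the array. RNA from the thyroid of male Wistar rats was hybridised to 13 one-colour microarrays, of which 6 held the KI-treated group and 7 the control group. Dams of the KI-treated group had been given 1 mg/kg/day of KI by gavage for 8 days starting at gestational day 9, and dams of the control group had been given saline in the same way. All offspring were 51 days old, 30 days after weaning, when the gland was taken, and the question was whether a difference of expression remained in them. The labels do not name the litter of an animal, so p-values measure only the spread between these 13 samples. The whole gland was measured, so that fewer cells of a type and less RNA per cell cannot be told apart.

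DNA methylation is the addition of a methyl group to cytosine, mostly where cytosine precedes guanine. Dnmt3a and Dnmt3b are the de novo methyltransferases, which place new marks, whereas Dnmt1 copies existing marks onto the new strand after replication, guided by Uhrf1, which binds the half-methylated site. Tet1, Tet2 and Tet3 oxidise 5-methylcytosine, and Tdg, a thymine DNA glycosylase, excises the last oxidised forms so that base excision repair can restore an unmarked cytosine. Dnmt1 and Uhrf1 are best known from dividing cells, and most follicular cells of an adult thyroid divide rarely.

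Each member was seen through 60-base probes, 1 spot each, and these are shown because probes of the same gene differed in whether they gave a signal. Coordinates are those of the array design on rn4, and the letters are the first 30 bases of a probe unless stated, in the sense of the transcript.
Tet2, chr2:231016042-231016101, minus strand: aggtcacagggccttacaacacatatgtat
Dnmt3a, A_44_P106571, chr6:26883595-26883654, plus strand: atcaaagagtcggacaaagatgaagttgtc
Dnmt3a, A_43_P22348, chr6:26864404-26864464, plus strand: tggtctgccagctattactggctgcttcca
Dnmt3b, A_44_P287958, chr3:144069022-144069081, plus strand: accttttgctctgattacaggtgctatttt
Dnmt3b, A_64_P004730, chr3:144060143-144060202, plus strand, whole probe: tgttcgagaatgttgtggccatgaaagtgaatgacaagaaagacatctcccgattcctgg
Uhrf1, chrUn:25453160-25454463, minus strand, whole probe: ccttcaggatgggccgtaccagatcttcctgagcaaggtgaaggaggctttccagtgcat
Dnmt1, chr8:19926995-19927054, minus strand: cactagttgtggcagtccttccaagtgcca
Tdg, chr7:23300450-23300509, minus strand, bases 25 to 54: ggatttgttttcATTAAAtaatactgagat
The capitals in the Tdg probe mark ATTAAA, a common variant of the polyadenylation signal. Either this hexamer or the signal itself, which reads AATAAA, both searched on the sense strand, was found in 1 of the 11 member probes and in 12.6% of all 45598 probes. The Uhrf1 probe covers 1304 bases of rn4, more than its own length. No pair among the 55 pairs of member probes shared a run of more than 8 bases. The GC content of the member probes lay between 35% and 55%, with a median of 43.3% over all probes of the array.

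Levels are log2 signals from which the 75th percentile of the same array was subtracted. Log2 fold changes are differences of group means, positive where the KI-treated group was higher. Levels of different genes were not set against each other. Within a gene, levels served to call probes bright or dim, to pick the brightest, and to set upstream against downstream probes. The scanner software calls each spot well above background or not, and a probe was tested where 6 or more of the 13 arrays had that call. The limma test with Benjamini-Hochberg adjustment was run on 25717 probes. None of them passed an adjusted p of 0.05 (0 of 25717, 0%), and 3271 (12.7%) passed 0.05 without adjustment. Of these, 44.9% were higher in the KI-treated group, a share that ran from 25.4% to 84.3% under other scalings of the arrays. The median log2 fold change over all tested probes was -0.08. An array had 34840 to 41050 gene spots well above background and none that was saturated.

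Some arrays stood apart from the others. In 746 transcripts with probes at least 1000 bases apart, the upstream probe was set against the downstream probe. From each transcript's difference its median over the 13 arrays was subtracted, so 0 stands for the typical array and not for equal brightness. On this measure upstream probes were low in control 4 (median -0.49 on the log2 scale), in control 6 (-0.28) and in control 7 (-0.12). The same measure lay between -0.00032 and 0.07 on the other 10 arrays. The mean correlation with the other arrays was 0.961 for control 4 and 0.969 for control 6, and between 0.977 and 0.980 for the other 11 arrays. KI-treated array 1 carried high signal for T cell and thymocyte markers, with 10 of 11 such markers well above background against 3 to 6 on each other array. Leaving out controls 4 and 6 together, or KI-treated array 1, was chosen after seeing the data, and values without them are given where they move a result. The gland was recognisable by its markers, with 9 of 10 follicular genes well above background on all 13 arrays, among them thyroglobulin (Tg), the precursor of thyroid hormone. All 8 skeletal muscle markers had a negative log2 fold change (median -1.42), and their mean level lay between -1.87 and 2.17 in the KI-treated group and between 0.77 and 4.07 in the control group. Whether muscle tissue on the arrays has a part in the values of the members was not tested.

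Of the 11 member probes, 7 were well above background on all 13 arrays and were tested. They were the probe of Tet1, of Tet2, of Tet3 and of Tdg, both A_44 probes of Dnmt3a and the A_44 probe of Dnmt3b. No member passed the adjusted threshold. Without adjustment, 2 of the 7 passed 0.05, Tet2 and Dnmt3a at A_44_P374741, both higher in the KI-treated group, against 12.7% of all tested probes in either direction, 5.71% on the higher and 7.01% on the lower side. The groups did not separate fully for any member probe, whereas they did for 149 of the 25717 tested probes (0.579%), with the KI-treated group higher in 0.257% and lower in 0.323% of them.

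**Figure D1:**
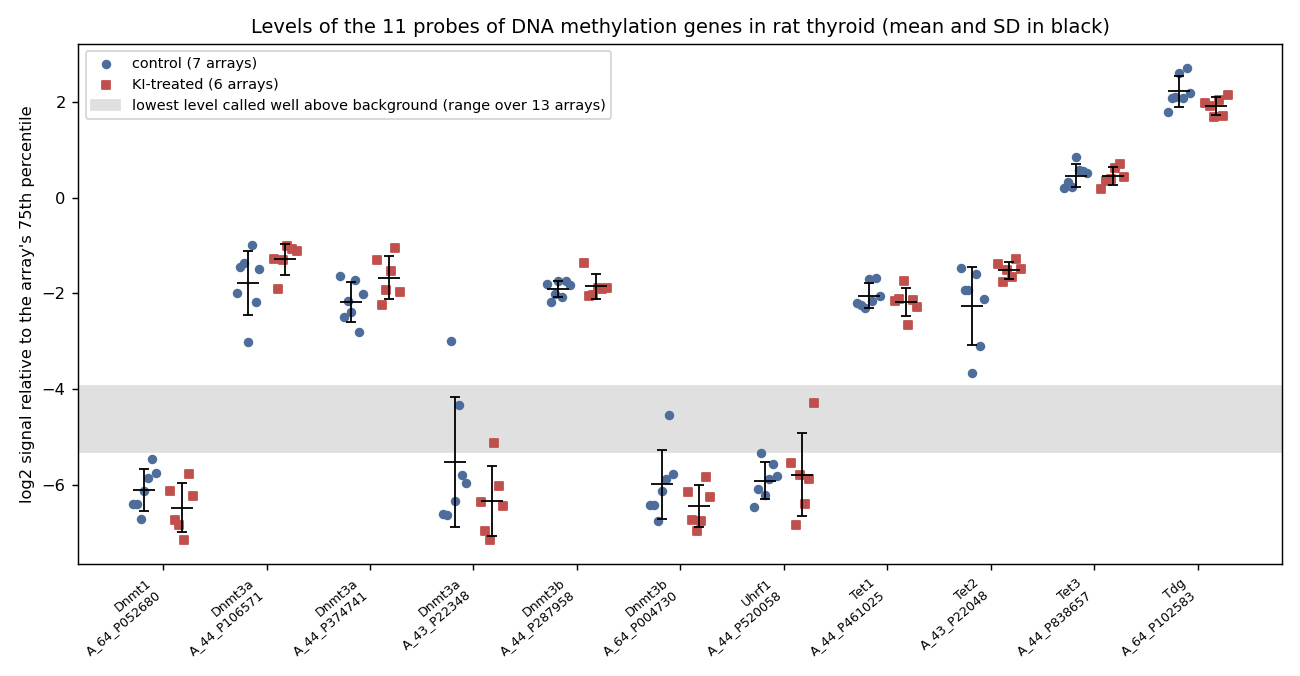
Log2 signal scaled to the 75th percentile (vertical axis) for the 11 member probes, 1 point per array, with 7 control arrays as blue circles, 6 KI-treated arrays as red squares, and mean and SD in black. The grey band spans the lowest level called well above background, -5.31 to -3.93 over the 13 arrays. The probes of Dnmt1 and Uhrf1 and 1 probe each of Dnmt3a and Dnmt3b lie mostly in or under this band.

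The maintenance pair was not measured by these probes. Dnmt1 was well above background on 0 of 13 arrays, and on all 13 the software had replaced its signal by a surrogate, the value it assigns to spots too dim to read. Its levels ran from -7.15 over a median of -6.48 to -5.78 in the KI-treated group and from -6.71 over -6.13 to -5.45 in the control group. Both ranges lay under the lowest level called well above background on any array, -5.31, so no fold change is given. Uhrf1 was also well above background on 0 of 13 arrays, with a surrogate on 5 of them. Its level ran from -6.83 to -4.29 in the KI-treated group, the highest value being that of KI-treated array 6, and from -6.46 to -5.33 in the control group. Such probes were common: 26.7% of the 27103 named genes had no probe well above background on any array. A single probe of each gene says nothing of the parts of the transcript that it does not cover.

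Other genes of maintenance did give a signal. Of the 7 partners listed, 5 were tested, 3 with a positive and 2 with a negative log2 fold change (median 0.04, against -0.08 over all tested probes). Of the 5, 0 passed 0.05 without adjustment in limma, against 12.7% of all tested probes. Without KI-treated array 1 the split was 2 positive and 3 negative and the median -0.03. Dmap1, a binding partner of Dnmt1, had a log2 fold change of 0.30 (SE 0.15, adjusted p = 0.401, limma). Its lowest level was that of control 4, at 0.18, and the other 12 arrays lay between 0.72 and 1.28. Uhrf2, the relative of Uhrf1, was well above background on all 13 arrays with a log2 fold change of 0.04 (adjusted p = 0.818, limma), and so was Pcna, the clamp of the replication fork, at -0.09 (adjusted p = 0.789, limma). Cdca7, which works with the remodelling helicase Hells, was well above background on 7 arrays and was highest in KI-treated array 1 at -1.03, with the other 12 arrays between -4.80 and -2.37. Hells itself was well above background on 4 arrays and Dnmt3l, the cofactor of the de novo enzymes, on 0, and neither was tested. Among 13 genes of proliferation, 12 were tested, and these 12 were well above background on all 13 arrays. Of them, 0 passed 0.05 without adjustment in limma, against 12.7% of all tested probes. The log2 fold change was positive in 2 and negative in 10 of them (median -0.18, against -0.08 over all tested probes). Without controls 4 and 6 the median was -0.03, with 5 positive and 7 negative, against -0.0083 over all tested probes. Without KI-treated array 1 the median was -0.30, with 1 positive and 11 negative, against -0.07 over all tested probes.

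Dnmt3a was represented by 3 probes, of which 2 were measured on every array. At A_44_P106571 the KI-treated group ran from -1.91 over a median of -1.20 to -1.02, and the control group from -3.01 over -1.49 to -0.98. The groups overlapped, since control 5 was the highest of all 13 arrays, and the lowest values were those of control 4 (-3.01) and control 6 (-2.17). The difference was 0.50 on the log2 scale (SE 0.28, 95% confidence interval -0.09 to 1.09, adjusted p = 0.428, limma), with an exact permutation p of 0.124, two-sided. At A_44_P374741 the KI-treated group ran from -2.24 over -1.74 to -1.05, and the control group from -2.81 over -2.16 to -1.62. Here control 6 was lowest (-2.81), followed by control 2 (-2.50) and control 4 (-2.40), while KI-treated arrays 5 and 1 were highest. The difference was again 0.50 (SE 0.23, 95% confidence interval 0.02 to 0.99, adjusted p = 0.388, limma), with an unadjusted p of 0.042 in limma and an exact permutation p of 0.061. In both probes 5 of 6 KI-treated arrays lay above the control median.

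The 2 bright Dnmt3a probes gave nearly the same fold change, with a difference of -0.0078 between them (exact permutation p = 0.977 over the 13 arrays). Across the array, 4684 pairs of tested probes of one gene, the brightest against each other one, differed by a median of 0.203, and 3.29% of the pairs were as close as the Dnmt3a pair. From array to array, however, they followed each other loosely, with Pearson r = 0.45 (permutation p = 0.130, n = 13) and Spearman rho = 0.35 (permutation p = 0.261), in the 1 relation computed. Without control 4 and KI-treated array 2, the arrays farthest from the median of A_44_P106571, r was 0.33. At the third Dnmt3a probe only control 3 was well above background, at -2.99.

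Without controls 4 and 6, the Dnmt3a differences were 0.17 (exact permutation p = 0.420) and 0.33 (exact permutation p = 0.206). Within the 3 scan sessions, as dated in the files, the differences at A_44_P106571 were 0.98, 0.56 and 0.26, and those at A_44_P374741 were 0.52, 0.62 and 0.43. Session 1 held 2 KI-treated arrays against controls 4 and 6. Session 2 held 3 KI-treated against 2 control arrays, and session 3 held 1 against 3. With session as a block, the first probe gave 0.63 (unadjusted p = 0.0061 and adjusted p = 0.157, limma) and the second 0.54 (unadjusted p = 0.015 and adjusted p = 0.179, limma). With slide as a block they gave 0.61 (unadjusted p = 0.0055 and adjusted p = 0.286, limma) and 0.58 (unadjusted p = 0.0067 and adjusted p = 0.286, limma). Either block thus brought the first probe under 0.05 without adjustment, in fits where 19.9% (session) and 15.5% (slide) of all tested probes were so.

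Dnmt3b had 1 bright and 1 dim probe. Its A_44 probe was well above background on 13 of 13 arrays, while its A_64 probe, which lies 1536 bases upstream on the same transcript, was so on 0 of 13. Of the 6672 genes with at least 2 probes, 808 (12.1%) had such a pair, 1 probe measured on all arrays and another on none. At the bright probe the KI-treated group ran from -2.05 over a median of -1.90 to -1.35, and the control group from -2.18 over -1.82 to -1.74. The groups overlapped, with KI-treated array 1 the highest of all 13 arrays and controls 2 (-2.18) and 5 (-2.07) the lowest. The difference was 0.06 (SE 0.13, 95% confidence interval -0.22 to 0.34, adjusted p = 0.822, limma), with an exact permutation p of 0.685.

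KI-treated array 1 was also the array rich in T cell and thymocyte markers. Cd3d, a chain of the T cell receptor complex, stood at 3.75 there and between -1.64 and -0.92 on the other 12 arrays. Rag1, the recombinase of immature lymphocytes, stood at 0.15 against -7.23 to -5.65. The mean level of the 11 markers was -0.25 on this array, and lay between -4.86 and -4.04 on the other KI-treated arrays and between -4.42 and -3.88 on the controls. Without KI-treated array 1 the Dnmt3b difference was -0.04, with the opposite sign. Dnmt1 stayed at its surrogate on this array too. The part of lymphoid RNA in the Dnmt3b value was not tested.

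**Figure D2:**
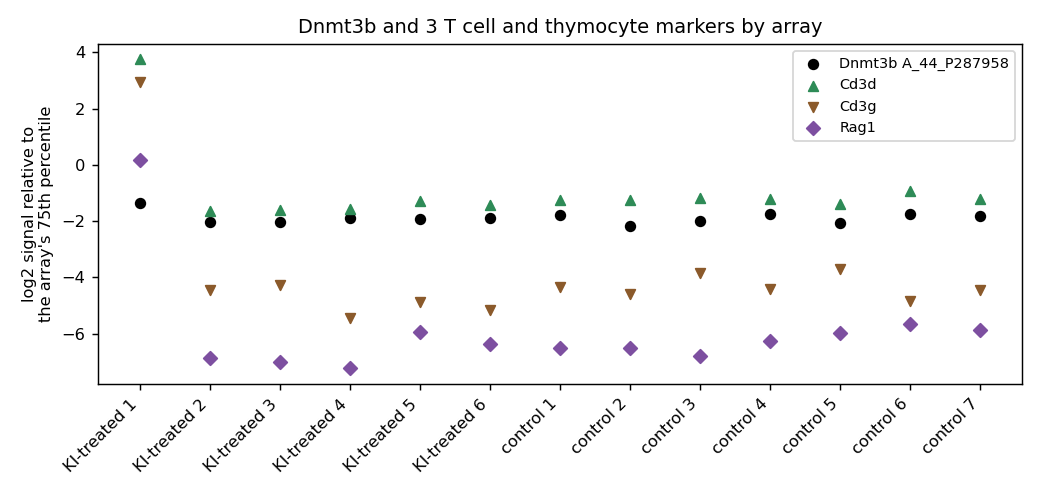
Log2 signal scaled to the 75th percentile (vertical axis) on each of the 13 arrays (horizontal axis) for Dnmt3b at A_44_P287958 (black circles) and for Cd3d (green), Cd3g (brown) and Rag1 (purple). Each of the 4 probes has its highest value on KI-treated array 1, where Dnmt3b reached -1.35.

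Tet2 had the largest difference of the 7 tested member probes. In the KI-treated group it ran from -1.76 over a median of -1.50 to -1.27, a narrow range, with an SD of 0.18 (n = 6). In the control group it ran from -3.65 over -1.93 to -1.46, with an SD of 0.82 (n = 7). All 6 KI-treated arrays lay above the control median, yet control 1 and control 5 lay within the range of the KI-treated group, and the spread of the controls came mostly from control 4 (-3.65) and control 6 (-3.11). The difference was 0.74 on the log2 scale (SE 0.31, 95% confidence interval 0.08 to 1.40, adjusted p = 0.377, limma), with an unadjusted p of 0.030 in limma and an exact permutation p of 0.030.

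Controls 4 and 6 carried much of this difference. Without them the control mean was -1.81 in place of -2.26, and the difference was 0.29 (SE 0.13, 95% confidence interval -0.0011 to 0.59, adjusted p = 0.533, limma), with an exact permutation p of 0.065. None of the 7 member probes then passed 0.05 without adjustment in limma (0 of 7), in a fit where 2412 of the 25717 tested probes (9.38%) did. Within scan sessions, Tet2 differed by 1.74 in session 1, which held controls 4 and 6, by 0.31 in session 2 and by 0.23 in session 3. These were 2 KI-treated against 2 control arrays, 3 against 2 and 1 against 3. On each of the 5 slides that held both groups, the KI-treated side was higher, by 0.10 to 1.89. Each slide held only 1 or 2 arrays of a group. The order of the 3 controls low in upstream probes was the same for Tet2, with control 4 lowest, then control 6 and then control 7 (-2.13). Its part in the difference was not tested.

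**Figure D3:**
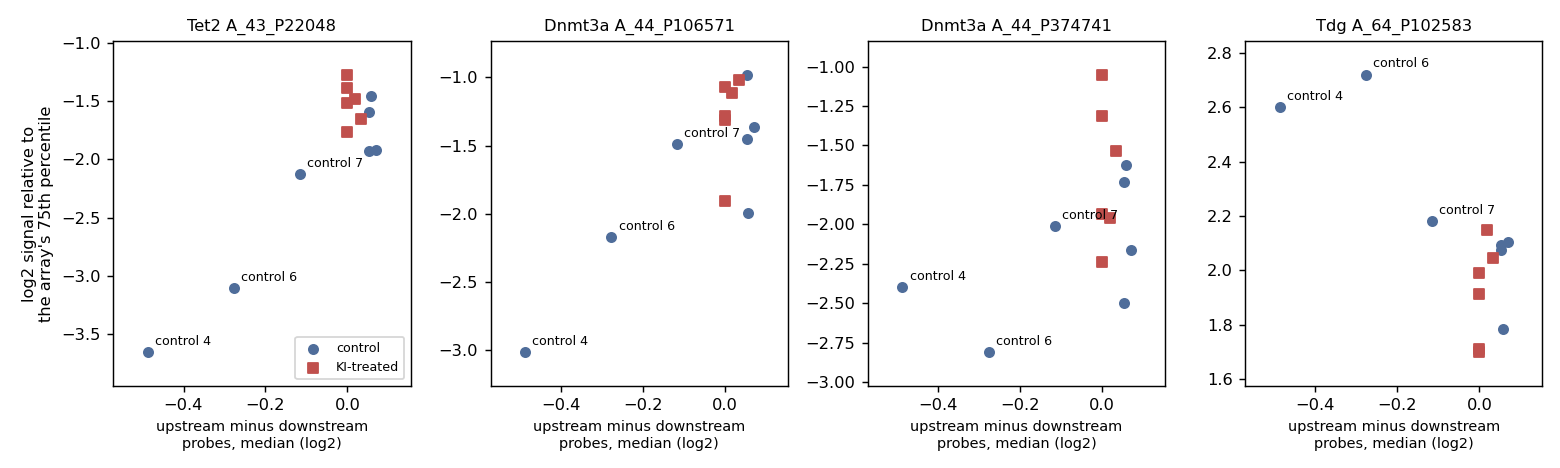
Log2 signal scaled to the 75th percentile (vertical axes, which differ in range) against the median upstream-minus-downstream difference of 746 transcripts (horizontal axes, log2) for Tet2, both bright Dnmt3a probes and Tdg, with 7 control arrays as circles and 6 KI-treated arrays as squares. For each transcript the median over the 13 arrays was first subtracted from this difference. Controls 4 and 6, at -0.49 and -0.28, hold the 2 lowest Tet2 and the 2 highest Tdg values of the 13 arrays.

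The fitted differences of Tet1 and Tet3 were smaller. Tet1 ran from -2.65 over a median of -2.15 to -1.75 in the KI-treated group and from -2.30 over -2.15 to -1.67 in the control group. Here controls 6 and 4 were the highest of all 13 arrays, at -1.67 and -1.69. The difference was -0.14 (SE 0.15, 95% confidence interval -0.47 to 0.19, adjusted p = 0.639, limma), with an exact permutation p of 0.409, and it was 0.0039 without controls 4 and 6. Tet3 ran from 0.18 over 0.41 to 0.70 in the KI-treated group and from 0.19 over 0.52 to 0.85 in the control group, so that the ranges nearly coincided, with control 4 highest. Its difference was -0.02 (SE 0.13, 95% confidence interval -0.30 to 0.26, adjusted p = 0.942, limma), with an exact permutation p of 0.875, and its sign turned under several scalings of the arrays. Whether the differences of the 3 Tet genes differ from each other was not tested.

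Tdg, the glycosylase downstream of the Tet enzymes, had the largest negative difference of the 7 tested member probes. It ran from 1.70 over a median of 1.95 to 2.15 in the KI-treated group and from 1.78 over 2.10 to 2.72 in the control group. The highest arrays were controls 6 (2.72) and 4 (2.60), and 5 of 6 KI-treated arrays lay below the control median. The difference was -0.31 (SE 0.15, 95% confidence interval -0.63 to 0.02, adjusted p = 0.407, limma), with an exact permutation p of 0.063. Without controls 4 and 6 it was -0.13 (exact permutation p = 0.216). Within scan sessions it was -0.86, 0.02 and -0.08, so that sessions 2 and 3 showed little of it. The sessions held 2 KI-treated against 2 control arrays, 3 against 2 and 1 against 3.

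**Figure D4:**
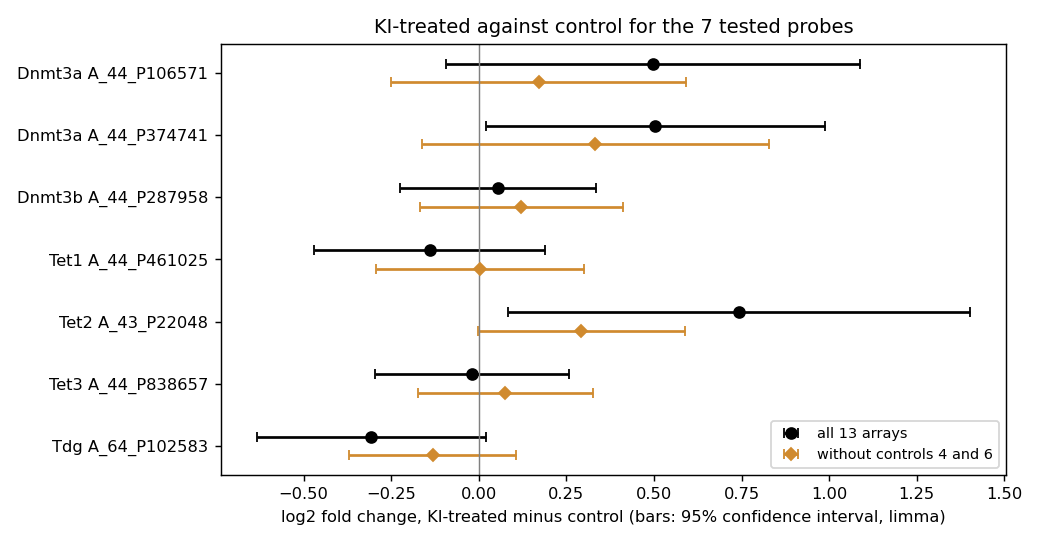
Log2 fold change, positive where the KI-treated group was higher (horizontal axis), for the 7 tested probes, with 95% confidence intervals from limma as bars, over all 13 arrays (black circles) and without controls 4 and 6 (orange diamonds). Tet2 moves from 0.74 to 0.29 and Tdg from -0.31 to -0.13 when these 2 arrays are left out.

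The partners of demethylation held 1 gene past 0.05 without adjustment in limma among the 11 tested, against 12.7% of all tested probes. Of the 12 listed, 11 were tested, 5 with a positive and 6 with a negative log2 fold change (median -0.02). The split became 8 and 3 both without controls 4 and 6 and with the percentile taken over gene spots. The median of all tested probes moved as well, from -0.08 to -0.0083 and 0.0014 in those fits. Idh1, which makes NADPH and, as a metabolic neighbour of the Tet enzymes, their cosubstrate 2-oxoglutarate, ran from 1.44 to 1.82 in the KI-treated group and from 0.26 to 1.67 in the control group. The 2 lowest values were again controls 4 (0.26) and 6 (0.35). The difference was 0.72 (SE 0.20, adjusted p = 0.353, limma), with an unadjusted p of 0.0032 in limma and an exact permutation p of 0.0093. Without controls 4 and 6 it was 0.49 (adjusted p = 0.437, limma), with an exact permutation p of 0.024. Idh2, its mitochondrial relative, stood at -0.16 (adjusted p = 0.565, limma). Ogt, a sugar transferase that binds Tet proteins, stood at 0.18 (adjusted p = 0.475, limma), and Smug1, a uracil DNA glycosylase, at -0.12 (adjusted p = 0.633, limma).

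Of the 8 proteins listed as readers of methylated CpG, 7 were tested, 2 with a positive and 5 with a negative log2 fold change (median -0.14). Over all tested probes 39.3% were positive, with a median of -0.08. Of the 7 readers, 0 passed 0.05 without adjustment in limma, against 12.7% of all tested probes. Mbd2 had -0.33 (SE 0.18, adjusted p = 0.419, limma), with controls 4 (4.71) and 6 (4.54) highest, and Zbtb38 had -0.26 (adjusted p = 0.426, limma). Mbd1 stood at -0.14 (adjusted p = 0.608, limma), and Mbd3 at 0.11 (adjusted p = 0.583, limma). Without controls 4 and 6, 5 of the 7 readers had a positive log2 fold change and the median was 0.02. The median of all tested probes moved too, from -0.08 to -0.0083. Whether the turn was particular to this list was not tested. The cycle that supplies the methyl donor S-adenosylmethionine was measured through 11 of 11 genes, with 3 positive and 8 negative (median -0.06). Of these, 0 passed 0.05 without adjustment in limma, against 12.7% of all tested probes. Mat2a, which makes the donor in most tissues, stood at 0.22 (adjusted p = 0.410, limma), and Ahcy, which clears its product, at -0.17 (adjusted p = 0.527, limma). Without controls 4 and 6, 9 of the 11 were positive, and 8 were so with the percentile taken over gene spots. In the latter fit Mat2a was the 1 gene past 0.05 without adjustment in limma, as were 2898 of all 25717 tested probes. The median of all tested probes was -0.0083 without controls 4 and 6 and 0.0014 with the percentile over gene spots.

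**Figure D5:**
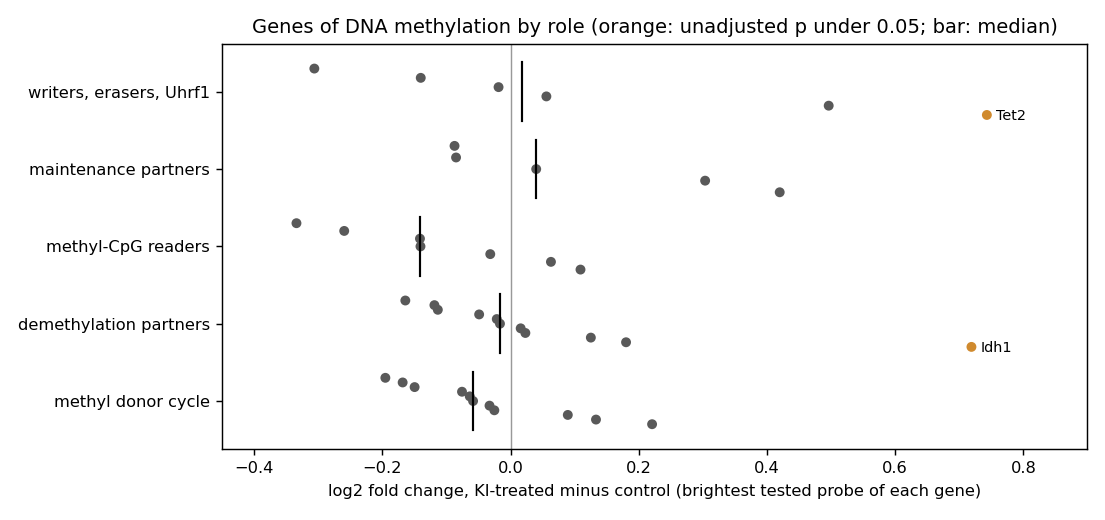
Log2 fold change, positive where the KI-treated group was higher (horizontal axis), for the brightest tested probe of each gene, grouped by role, with a bar at the median of each group. Tet2 (0.74) and Idh1 (0.72) are the 2 genes with an unadjusted p under 0.05 in limma, in orange. Across the array, 12.7% of all tested probes had such a p.

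For each member with a tested probe, the named genes with the most similar pattern over the 13 arrays, after removal of the group means, were taken from 20516 probes. For Tet2 these were Elac2 (Pearson r = 0.979), Xrcc6 (0.976) and Atf1 (0.968), and without controls 4 and 6 these r were 0.914, 0.927 and 0.865. For Dnmt3a at A_44_P106571 they were Slc25a26 (0.963), LOC100362548 (0.962) and Myo18a (0.961), and for Tdg they were Ttc26 (0.974), LOC288978 (0.965) and Cand1 (0.956). Dnmt3b was most like LOC688126 (0.914), Cd6 (0.898) and Fyb (0.893), and the last 2 are known from T cells. Without KI-treated array 1 and control 2 these r were 0.768, 0.846 and 0.808. Tet1 was most like LOC103691812 (0.940), Rps21 (0.937) and Zfp518a (0.936), and Tet3 most like Bex4 (0.926), Ncf1 (0.912) and Klhl8 (0.879). The points of each of these correlations share arrays, hence scaling and RNA quality, and the genes were picked as the highest of many, so the values are a description.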

How the data were processed

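RNA was labelled with Cy3 and hybridised to Agilent rat arrays. The authors scanned them and deposited, for each spot, the intensity that Feature Extraction 10.7.3.1 had corrected for background. The authors also deposited log2 values, whose normalization is not given in the sources used here. Members and gene lists were chosen with earlier results of these data known.

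Outlier spots were left out, log2 of the intensity was averaged per probe, and the 75th percentile of the probes of the array was subtracted. The sources did not fix which spots enter that percentile. It was first taken over all gene spots, which gave another count of probes at unadjusted p under 0.05 than an earlier analysis of these data. Taking it over 5 sets (gene spots, all features, probe means, spots well above background, tested probes) showed that probe means gave the earlier count, and this form was adopted for that reason, after its results had been seen. The other 4 are reported as alternatives.

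Probes with 6 or more arrays well above background were tested with limma 3.58.1 (R 4.3.3), 6 against 7 arrays, without covariates. For 67 of them a value was missing on at least 1 array. The script was tested on simulated data. Single probes also got an exact permutation p (two-sided, 1716 splits of the arrays, 462 without controls 4 and 6). Correlations used 100000 permutations. The number of arrays limits the precision. All probes of the 8 members are reported, the brightest standing for its gene in the lists. Up to 4 genes per list, those with the smallest p, are named, with Uhrf2, Rag1 and other genes not tested added after their values were seen. Arrays sharing a replicate number did not deviate together over the tested probes as a whole (correlations of deviations from -0.109 to 0.0714). All 8 symbols and 3 of 11 probe accessions were found in the RefSeq table used here. The sequence and position of 1 Dnmt3a probe are not reported here. Cortex arrays were not analysed here.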

Additional observations from a re-analysis of the deposited data

Results flagged for a closer look

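In 2 of the 14 groups checked, a single array lay far from the others of its group, where chance alone gives about 1 in 20 groups. For Dnmt3a at A_44_P106571, KI-treated array 2 was lowest of its group at -1.91, away from the other 5 KI-treated arrays. For Dnmt3b at A_44_P287958, KI-treated array 1 was highest of its group at -1.35.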

How the results depend on the processing

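Tet2, both Dnmt3a probes and Tdg kept their direction under all 17 alternatives and with any 1 array left out, and no member passed an adjusted 0.05 in limma. Left-out arrays gave 0.51 to 0.88 for Tet2, 0.29 to 0.63 and 0.38 to 0.62 for Dnmt3a, and -0.38 to -0.22 for Tdg. Sizes moved by over 1.5 times with normexp and the 75th percentile (Tet2 0.35, both Dnmt3a probes 0.24), with normexp and quantile (Tet2 0.44, Dnmt3a 0.32 and 0.31), with array weights (Tet2 0.43, Dnmt3a at A_44_P106571 0.17, Tdg -0.20), with the percentile over well above background spots (Tdg -0.14), without control 4 (Dnmt3a at A_44_P106571 0.29) and without controls 4 and 6. Member probes at unadjusted p under 0.05 (2) became 3 with normexp and quantile, with the deposited values, with slide block and with session block. Their number was 1 with normexp and the 75th percentile, with no filter and with array weights. It was 0 with a t-test in place of limma, 0 without controls 4 and 6, and 0 to 3 with 1 array left out. The count was 0 without KI-treated array 1, KI-treated array 5 or control 6, and 1 without KI-treated array 4 or control 2, 3 or 4. Probes past the adjusted threshold numbered 50 with array weights, and 0 to 1 with 1 array left out (1 without control 1 or control 2). Those at unadjusted p under 0.05 numbered 5120 with session as a block and 2364 to 4598 with 1 array left out.

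The sign of Tet3 turned under quantile normalization (0.023), normexp and quantile (0.014), slide block (0.018), session block (0.0041), array weights (0.033), without controls 4 and 6 (0.076), and with the percentile over gene spots (0.060), all features (0.043), well above background spots (0.147) or tested probes (0.049), and ran from -0.069 to 0.046 with 1 array left out. Dnmt3b turned under normexp and the 75th percentile (-0.019) and ran from -0.044 to 0.095. Tet1 turned without controls 4 and 6 (0.0039) and with the percentile over well above background spots (0.026). The cause was not tested.

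The 5 ways of taking the percentile moved the median of all probes and the split of calls at unadjusted p under 0.05. Probe means gave 1469 higher and 1802 lower (44.9% higher), gene spots 1789 and 1109 (61.7%), all features 1561 and 1334 (53.9%), tested probes 1685 and 1282 (56.8%), and spots well above background 2030 and 378 (84.3%, median shifted by 0.17). The share was 56% with quantile normalization, 25.4% with normexp and the 75th percentile, 57.3% with normexp and quantile and 58.1% with the deposited values. The smallest adjusted p over the 5 percentiles was 0.257. With the replicate number as a block (6 pairs), 2356 probes passed unadjusted 0.05, and Tet2 was 0.76 (adjusted p = 0.539, limma). Dnmt3a at A_44_P374741 was 0.53 in that fit (SE 0.15, unadjusted p = 0.0064 and adjusted p = 0.539, limma). Arrays sharing a number did not deviate together over the tested probes as a whole. Whether a pairing touches few of the probes was not tested.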
